A study of Mus musculus with 10 samples.

Results

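The 31 genes described here encode serum response factor and proteins that build, bind or anchor actin filaments, many of them known targets of that factor. They were taken as every probe set that the platform annotation gives to exactly 1 of the 31 symbols, which found 79 of 45037 probe sets and 31 of 18193 named genes. They were measured in mouse keratinocytes with and without RhoA, a GTPase that governs how actin is organised. The question was whether their transcripts differed with the genotype, in cells taken straight from the epidermis and in cells grown in culture.

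RhoA acts through the ROCK kinases and the diaphanous formins to polymerise actin and to drive myosin contraction. Polymerisation uses up monomeric actin, which otherwise binds the myocardin-related coactivators Mrtfa and Mrtfb, and the freed coactivators enter the nucleus and switch on genes together with serum response factor (SRF). SRF binds a short DNA element called the CArG box, and its targets include actins, tropomyosins, calponins and its own gene. Basal keratinocytes use actin bundles at focal adhesions and cell junctions to spread, migrate and hold the epidermal sheet together.

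KO and WT arrays were compared within each condition. The cells called KO carried 2 floxed alleles and the Cre transgene (RhoA fl/fl K5 cre), and the cells called WT carried 1 floxed allele with the same transgene (RhoA fl/+ K5 cre), so that the controls are heterozygous for the floxed allele and also express Cre. The K5 promoter drives Cre in basal keratinocytes. Cultured primary keratinocytes had 3 KO and 3 WT arrays, and freshly isolated keratinocytes had 2 KO and 2 WT arrays, all hybridised to an Affymetrix Mouse Genome 430 2.0 array. No animals are named in the labels, only biological replicate numbers, so a p-value here reflects the spread among these arrays, which may be technical in part. The labels give no age.

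Fresh and cultured arrays lay on different scales. The median intensity was 7.75 to 8.0 on cultured arrays and 64.09 to 64.8 on fresh arrays, so intensities were compared only within a condition. The 7 keratinocyte markers had summed intensities of 187118 to 191403 in cultured KO cells, 167877 to 193463 in cultured WT cells, 140934 to 145615 in fresh KO cells and 131934 to 134284 in fresh WT cells. The differentiation marker Krt1 read 5.13 to 26.7 on cultured KO arrays and 4.30 to 18.7 on cultured WT arrays, near the floor, against 16933 to 17555 on fresh KO arrays and 10562 to 12360.4 on fresh WT arrays. Among markers of other cells, the Langerhans cell, melanocyte and fibroblast sums did not overlap between KO and WT in fresh cells. Of all genes tested in fresh cells, 52.4% did not overlap either. The hair follicle sums and the smooth muscle and pericyte sums overlapped there, as did the melanocyte sums in culture. The 6 inner root sheath genes of the hair follicle summed to 303 and 30788 on the fresh KO arrays, the higher sum being KO replicate 2, and to 403 to 1003 on the fresh WT arrays. The 5 Langerhans cell and myeloid genes summed to 5572 to 11925 on fresh KO arrays and 14302 to 18165 on fresh WT arrays. Taken singly, Cd74, H2-Aa and H2-Ab1 did not overlap between KO and WT there, whereas Cd207 and Ptprc did. The 5 melanocyte genes summed to 892 to 4349.8 on fresh KO arrays and 439 to 581 on fresh WT arrays. The 7 fibroblast genes summed to 518 to 1399.5 on fresh KO arrays and 349 to 372 on fresh WT arrays. The 7 smooth muscle and pericyte genes summed to 2527 to 2671 on fresh KO arrays and 2486 to 2625 on fresh WT arrays. Notch3 (1819 to 1965) and Cspg4 (454 to 555) made up most of these sums, and 4 of the 7 lay below the array median. In culture the 5 melanocyte genes summed to 418 to 1315 on KO arrays and 217 to 475 on WT arrays, and of the 4 tested all had positive log2 changes (median 1.36), 3 of them at an unadjusted p under 0.05 and 0 called. Their part in the results in culture was not tested. In culture all 5 Langerhans cell and myeloid genes and all 4 endothelial genes lay below the array median. In bulk samples, fewer cells of a type and less RNA per cell cannot be told apart. Rhoa itself, by its brightest probe set, averaged 7892 ± 294 in cultured KO cells and 10123 ± 1027 in cultured WT cells (SD, n = 3 each, adjusted p = 0.156), and 4347 ± 72.2 in fresh KO cells and 3792 ± 377 in fresh WT cells (SD, n = 2 each, adjusted p = 0.434). Where its probes lie relative to the deleted part is not known here, so Rhoa does not check the labels.

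The promoters of the genes were searched for the CArG box, since it is the element through which SRF acts. A box was taken as CC, 6 bases that are each A or T, and GG, a pattern whose reverse complement is of the same kind, so that both strands are covered. The RefSeq promoter table (GRCm38.p6) holds windows of 250 bases before to 50 bases after a start site. It has entries for 28 of the 31 genes, and Actb, Tagln and Tgfb1i1 have none. A box was present in 7 of the 28 genes (25%) and in 488 of 27025 genes in all (1.81%), and the genes were chosen in part as SRF targets, so the difference is a description of that choice. Srf, Actg1, Cnn2 and Fhl2 are shown because the values below turn on them. Capitals mark the boxes, positions count back from the start site, and each stretch is 120 bases long, 5′ to 3′ on the gene's strand.

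Srf has 2 boxes, at -82 and -62 (chr17:46556163-46556282, minus strand).

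Srf: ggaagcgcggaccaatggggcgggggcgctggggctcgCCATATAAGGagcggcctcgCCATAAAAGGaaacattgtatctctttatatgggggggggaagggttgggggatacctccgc

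Actg1, a cytoplasmic actin, has 1 box at -90 (chr11:120348496-120348615, minus strand).

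Actg1: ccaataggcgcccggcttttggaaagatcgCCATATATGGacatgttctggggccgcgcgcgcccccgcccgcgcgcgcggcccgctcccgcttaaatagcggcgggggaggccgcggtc

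Cnn2, a calponin, has 1 box at -56 (chr10:79988480-79988599, plus strand).

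Cnn2: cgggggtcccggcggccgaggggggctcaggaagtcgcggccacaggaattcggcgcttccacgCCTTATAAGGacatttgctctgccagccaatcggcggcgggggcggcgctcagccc

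Fhl2, a LIM domain protein, has 2 start sites in the table. The one at chr1:43196762-43196881 (minus strand) has a box at -96, and the one at chr1:43163962-43164081 (minus strand) has a box at -31.

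Fhl2 first start: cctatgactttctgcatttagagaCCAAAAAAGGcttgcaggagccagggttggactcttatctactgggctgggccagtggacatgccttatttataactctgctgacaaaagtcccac

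Fhl2 second start: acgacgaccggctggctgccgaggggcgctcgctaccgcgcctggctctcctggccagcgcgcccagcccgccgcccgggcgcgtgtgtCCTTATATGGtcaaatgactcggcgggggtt

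Vcl has a box at -227, Lima1 at -47 and Fhl1 at -102. A match is a description of letters and not a measured binding site.

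Across the 31 genes, none passed the adjusted threshold of 0.05 in either condition. In culture 0 of 30 tested genes were called by limma, when 0.3% of 10994 genes were called in all. At an unadjusted p under 0.05, 4 genes were higher in KO (Tpm1, Capg, Ezr and Tagln2) and 1 was lower (Cnn2), against 8.05% and 9.73% of all genes, and the total of 5 of 30 compares with 17.8% of all genes. In fresh cells 0 of 29 tested genes were called, as were 0 of 11250 genes in all, and 6 were higher (Fhl2, Tpm2, Tagln2, Ezr, Msn and Capg) and 4 lower (Srf, Csrp1, Cnn2 and Cnn3) at an unadjusted p under 0.05, against 7.64% and 7.75% of all genes. The total of 10 of 29 compares with 15.4% of all genes. The median log2 change of the genes was -0.03 in culture (11 higher, 19 lower) and -0.06 in fresh cells (12 higher, 17 lower), against -0.01 and 0.01 for all genes. Genes are counted by their brightest probe set, and limma was run over all probe sets kept. The calls in fresh cells changed without fresh KO replicate 1, which leaves 1 KO array, replicate 2, assumed to vary like the others. Replicate 2 was the KO array with the higher hair follicle sum. In that fit the log2 changes were 1.43 for Fhl2, 0.82 for Tpm2 and -0.70 for Fhl1.

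**Figure D1:**
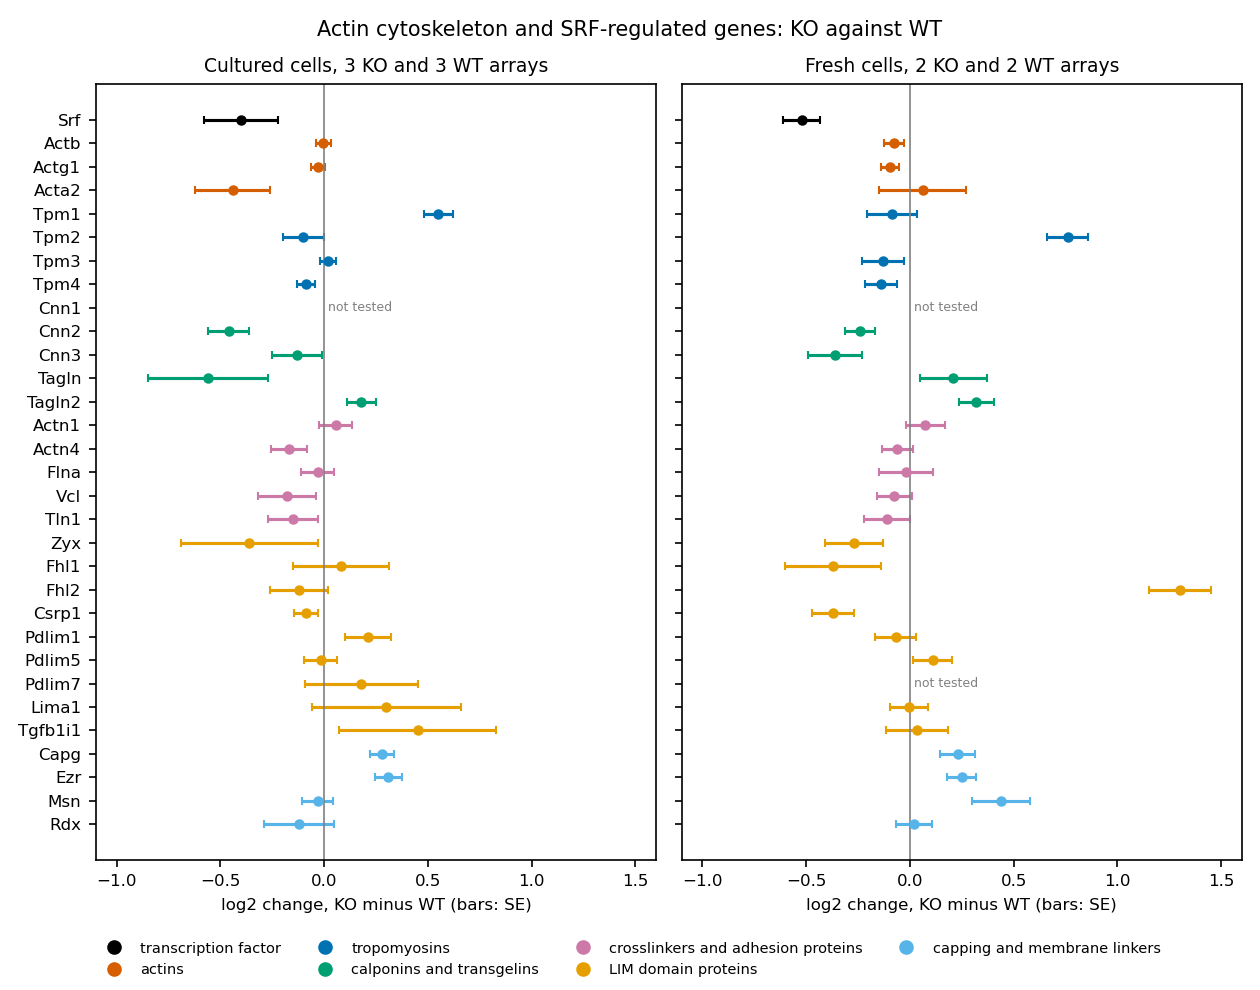
Log2 change of KO over WT for the genes in cultured and in fresh keratinocytes, by brightest probe set (points) with the standard error (bars), coloured by kind of protein. Most genes lie near 0, while Fhl2 at 1.30 and Tpm2 at 0.76 lie to the right in fresh cells and Tpm1 at 0.55 in culture. Points to the left include Tagln at -0.56 and Cnn2 at -0.46 in culture, and Srf at -0.52 in fresh cells.

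Srf, which encodes the transcription factor itself, was lower in KO in both conditions without passing the adjusted threshold. Its brightest probe set read 1086, 996 and 944 on cultured KO arrays, against 1729, 1107 and 1235 on cultured WT arrays. All 3 KO arrays lay below all 3 WT arrays, and WT replicate 1 was the highest. The log2 change was -0.40 (SE 0.18, 95% interval -0.84 to 0.032, adjusted p = 0.345). In fresh cells it read 1352 and 1454 on KO arrays, against 2029.8 and 1989 on WT arrays, with no overlap (log2 change -0.52, SE 0.089, unadjusted p = 0.00169, adjusted p = 0.250). The second probe set, 1418256_at, gave log2 changes of -0.92 in culture (adjusted p = 0.179) and -0.22 in fresh cells (adjusted p = 0.471).

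The actins form the filaments themselves. By their brightest probe sets, both cytoplasmic actins gave log2 changes between -0.094 and -0.0034. That of Actb in culture was 0.016 after centring each array on its 75th percentile. Actb, a cytoplasmic actin, read 64067, 63608 and 66709.6 on cultured KO arrays, against 63312, 64832 and 66694 on cultured WT arrays. The groups overlapped, and the log2 change of -0.0034 had a 95% interval of -0.094 to 0.087. On fresh arrays Actb read 20666 and 19965 in KO, against 21831 and 21060.1 in WT (log2 change -0.078, 95% interval -0.20 to 0.045, adjusted p = 0.545). Actg1, the other cytoplasmic actin, read 66752, 63876 and 64492 on cultured KO arrays and 67389, 65179 and 66705 on cultured WT arrays, overlapping (log2 change -0.031, 95% interval -0.11 to 0.051). On fresh arrays it read 24060.4 and 24139 in KO and 25442 and 25994 in WT, without overlap (log2 change -0.094, adjusted p = 0.431). Acta2, the smooth muscle actin, read 602, 467 and 655 on cultured KO arrays and 646, 777 and 915 on cultured WT arrays, and 1 KO array lay above the lowest WT array (log2 change -0.44, adjusted p = 0.329). On fresh arrays it read 185 and 265 in KO and 194 and 232 in WT, overlapping (log2 change 0.062, 95% interval -0.48 to 0.60). A second probe set of Actb, 1419734_at, pointed up in both conditions (log2 changes 0.51 in culture and 0.67 in fresh cells, adjusted p = 0.551 and 0.346). Its mean intensity was 861 in cultured KO and 639 in cultured WT cells, with overlap. On fresh arrays it read 3348 and 5459.8 in KO, against 2823 and 2546 in WT, without overlap (unadjusted p = 0.0308 by limma). The Actb probe sets thus did not give one direction.

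The tropomyosins, coiled-coil proteins that lie along the filament and differ between isoforms in the filaments they mark, split by member and condition. Tpm1 read 9696, 10469 and 11409 on cultured KO arrays, against 7288, 7210.2 and 6980.4 on cultured WT arrays. All KO arrays lay above all WT arrays, 1.47-fold on average (log2 change 0.55, SE 0.070, 95% interval 0.38 to 0.72), with an adjusted p of 0.0627 that just missed the threshold. Without KO replicate 1 it was 0.0484, and the range over the 6 left-out arrays was 0.0484 to 0.252. A second Tpm1 probe set, 1423049_a_at, gave 0.59 (adjusted p = 0.0681), again without overlap. Another tested one, 1456623_at, gave 0.0020 in culture with overlap, at lower intensities (means of 123 in KO and 124 in WT). In fresh cells Tpm1 read 697 and 823 in KO and 781 and 827 in WT, overlapping (log2 change -0.086, adjusted p = 0.799). The probe set 1456623_at read 215 and 191 on fresh KO arrays, against 348 and 349 on fresh WT arrays (log2 change -0.78, adjusted p = 0.249). The Tpm1 probe sets thus did not give one value in either condition. The KO effect in culture minus that in fresh cells was 0.64, short of the threshold (adjusted p = 0.0824).

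Tpm2 ran the other way. In fresh cells it read 1375 and 1514 on KO arrays, against 844 and 866 on WT arrays, 1.69-fold higher in KO with no overlap (log2 change 0.76, SE 0.10, unadjusted p = 0.000492, adjusted p = 0.242). In culture it read 15921, 16235 and 18516 on KO arrays and 16088, 18202 and 19951 on WT arrays, overlapping (log2 change -0.10, adjusted p = 0.677). The KO effect in culture minus that in fresh cells was -0.85 (SE 0.14, adjusted p = 0.0253). A second probe set, 1425028_a_at, gave 0.96 in fresh cells (606 and 690.4 in KO, 340.4 and 325 in WT) and -0.19 in culture, a difference of -1.15 (adjusted p = 0.0182). The probe set 1449577_x_at gave 0.52 in fresh cells. The remaining one, 1419739_at, gave -0.83 in culture at low intensities (31.4 in KO and 57.0 in WT) and -0.0014 in fresh cells. Tpm3 and Tpm4 gave small log2 changes. Tpm4 read 28281, 26749.5 and 27704 on cultured KO arrays and 28935, 28623 and 30468 on cultured WT arrays, without overlap (log2 change -0.089, adjusted p = 0.377), and Tpm3 gave log2 changes of 0.019 in culture and -0.13 in fresh cells.

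**Figure D2:**
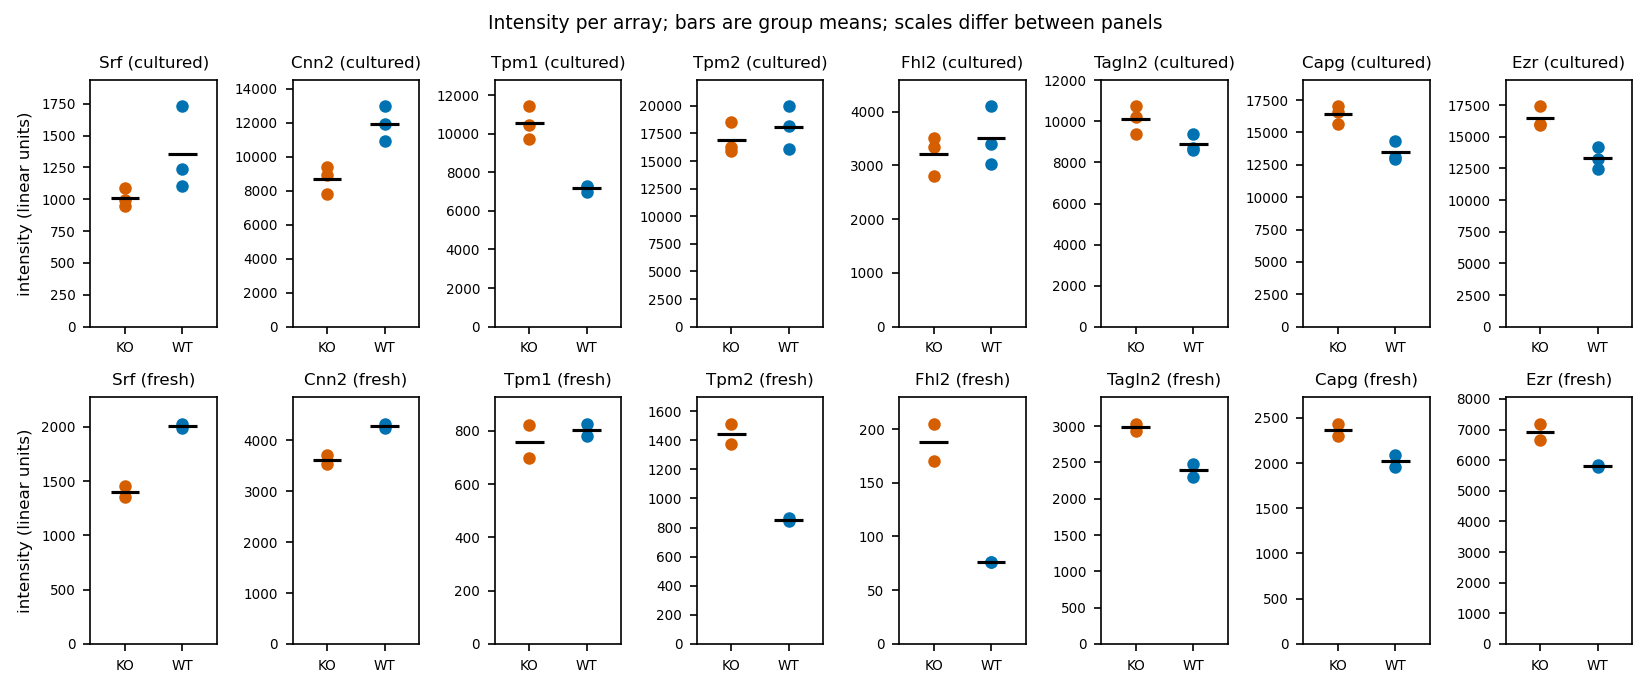
Linear intensity on each array for 8 of the genes in cultured and in fresh keratinocytes, KO left of WT, with each panel on its own axis from 0. Points are arrays and bars are group means. The KO points of Fhl2 and Tpm2 lie above the WT points in fresh cells and among them in culture, while those of Cnn2 lie below WT in both conditions.

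Among the calponins and transgelins, which bind actin filaments along their length, Cnn2 was lower in KO in both conditions. Cnn2 read 7816, 8931 and 9396 on cultured KO arrays, against 11931, 10933 and 12961 on cultured WT arrays, with no overlap (log2 change -0.46, SE 0.10, unadjusted p = 0.00322, adjusted p = 0.132). On fresh arrays it read 3709 and 3532 in KO, against 4238 and 4326 in WT, again without overlap (log2 change -0.24, unadjusted p = 0.0176, adjusted p = 0.317). Cnn3 read 1658 and 1911 on fresh KO arrays and 2079 and 2521 on fresh WT arrays, without overlap (log2 change -0.36, adjusted p = 0.357), and its log2 change in culture was -0.13. All 6 Cnn3 probe sets were negative in both conditions, but they measure 1 transcript family. Tagln2 was higher: it read 10193, 9382 and 10730.1 on cultured KO arrays and 9407, 8612 and 8688 on cultured WT arrays, with 1 KO array below the highest WT array (log2 change 0.18, adjusted p = 0.293). On fresh arrays Tagln2 read 3034 and 2929 in KO and 2479 and 2303 in WT, without overlap (log2 change 0.32, unadjusted p = 0.0103, adjusted p = 0.303). Tagln, a smooth muscle marker, was at or near the floor in culture, with 7.19, 7.16 and 7.22 in KO and 6.72, 11.3 and 15.5 in WT. The groups overlapped (log2 change -0.56, adjusted p = 0.413). On fresh arrays Tagln read 70.2 and 84.6 in KO and 65.4 and 67.5 in WT, without overlap (log2 change 0.21, adjusted p = 0.608). Cnn1, the smooth muscle calponin, averaged 4.26 in both cultured groups and 35.3 in fresh KO and 37.9 in fresh WT cells, below the array median, and was not tested.

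The crosslinkers and adhesion proteins, which bundle filaments (Actn1, Actn4, Flna) or couple them to integrins (Vcl, Tln1), gave no unadjusted p under 0.05 by their brightest probe sets. Actn4 read 8265, 8427 and 8796 on cultured KO arrays and 8506, 9673 and 10567 on cultured WT arrays, overlapping (log2 change -0.17, adjusted p = 0.406). The others had log2 changes in culture of 0.055 for Actn1, -0.030 for Flna, -0.18 for Vcl and -0.15 for Tln1. In fresh cells the 5 lay between -0.11 and 0.074.

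The LIM domain proteins, which bind actin, focal adhesions or SRF cofactors, held the gene with the largest log2 change among those tested here. Fhl2, an adaptor that can bind SRF, read 170.3 and 205 on fresh KO arrays, against 76.3 and 76.0 on fresh WT arrays. Both KO arrays lay above both WT arrays, 2.45-fold on average (log2 change 1.30, SE 0.15, 95% interval 0.91 to 1.68, unadjusted p = 0.000269, adjusted p = 0.213), and the WT arrays lay close to the array median, at percentile rank 53.4. In culture Fhl2 read 2804, 3336 and 3513 on KO arrays and 4096, 3034 and 3406 on WT arrays, overlapping (log2 change -0.12, adjusted p = 0.715). The KO effect in culture minus that in fresh cells was -1.42 (SE 0.21, adjusted p = 0.0182). Over all genes the difference test called 1.06% of 9801, and 2 of the 29 genes tested here, Fhl2 and Tpm2, and by probe set 3 of 64, against 0.879% of 18773. On simulated data the difference test made more false calls than its threshold allows, so these adjusted p may be too small. With the smaller of the fits' degrees of freedom, an alternative chosen after seeing the data, it called 0 of all probe sets (adjusted p = 0.280 for both genes). As the interaction of 1 fit over the 10 arrays it gave 0.0513 for Fhl2 and 0.0566 for Tpm2, and 0.0426 for the Tpm2 probe set 1425028_a_at.

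Leaving out each of the 10 arrays in turn, the difference for Fhl2 lay between -1.55 and -1.28 and kept its call in 6 fits. It lost the call without cultured KO replicate 3 (adjusted p = 0.0506), cultured WT replicate 3 (0.0626), fresh WT replicate 1 (0.102) or fresh WT replicate 2 (0.191). The difference for Tpm2 lay between -0.93 and -0.78 and kept its call in 3 fits, those without cultured KO replicate 1, cultured WT replicate 1 or fresh KO replicate 1, with adjusted p of 0.0504 to 0.218 in the others. The probe set 1425028_a_at kept its call in 7 fits and lost it without cultured WT replicate 3 (0.0626), fresh WT replicate 1 (0.113) or fresh WT replicate 2 (0.239). Within fresh cells, the log2 change of Fhl2 was 1.16 without KO replicate 2 (adjusted p = 0.146) and 1.43 without KO replicate 1 (0.0144). That of Tpm2 was 0.69 without KO replicate 2 (0.179) and 0.82 without KO replicate 1 (0.0213). Without WT replicate 1 or WT replicate 2 the log2 changes were 1.30 and 1.29 for Fhl2 and 0.74 and 0.77 for Tpm2, and the adjusted p were 0.535 and 0.983 for both genes. The hair follicle, fibroblast, melanocyte and Langerhans cell sums given above differed between the fresh arrays, and their part in the result was not tested.

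Csrp1, a small LIM protein of the cytoskeleton, read 2014 and 2282 on fresh KO arrays and 2684 and 2862 on fresh WT arrays, without overlap (log2 change -0.37, unadjusted p = 0.0114, adjusted p = 0.303), and its second probe set gave -0.43. In culture its log2 change was -0.088. Pdlim1, a PDZ and LIM protein that binds alpha-actinin, read 17380.3, 16292 and 15029 on cultured KO arrays and 16351, 12760.2 and 13050.3 on cultured WT arrays, overlapping (log2 change 0.21, adjusted p = 0.410). Fhl1 read 575 and 365 on fresh KO arrays and 589 and 595 on fresh WT arrays, and its log2 change was -0.37 (adjusted p = 0.537) but -0.043 without KO replicate 2 and -0.70 without KO replicate 1 (adjusted p = 0.0447). Zyx, Tgfb1i1, Lima1 and Pdlim7 had wide WT spreads in culture, with SDs of log2 intensity of 0.629, 0.742, 0.702 and 0.524, and the highest array of each was WT replicate 1. Zyx, which marks focal adhesions, read 3116, 2126 and 2236 in KO and 5063, 2149 and 2873 in WT. Pdlim5 gave log2 changes of -0.017 in culture and 0.11 in fresh cells by its brightest probe set. Of its 7 probe sets tested in culture, 5 were positive and 2 negative. Among them 1421413_a_at gave 0.31 without overlap (unadjusted p = 0.0285, adjusted p = 0.265 by limma).

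Capg, which caps filament ends, and Ezr, which links filaments to the membrane, were higher in KO in both conditions. Capg read 15615, 16599 and 17004 on cultured KO arrays, against 13136, 14339 and 12978 on cultured WT arrays, without overlap (log2 change 0.28, SE 0.059, unadjusted p = 0.00323, adjusted p = 0.132). On fresh arrays it read 2435 and 2303 in KO and 2085 and 1959 in WT, without overlap (log2 change 0.23, adjusted p = 0.368). Ezr read 17389, 15958 and 15998 on cultured KO arrays and 14219.6, 12475 and 13259 on cultured WT arrays, without overlap (log2 change 0.31, SE 0.066, adjusted p = 0.139). On fresh arrays it read 7193 and 6667 in KO and 5829 and 5787 in WT, without overlap (log2 change 0.25, adjusted p = 0.306). The related linker Msn read 1879 and 2027 on fresh KO arrays and 1621 and 1271 on fresh WT arrays (log2 change 0.44, adjusted p = 0.329), but its log2 change in culture was -0.031. Rdx, a further member of this family, gave -0.12 in culture and 0.020 in fresh cells.

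Cultured and fresh fits share no arrays, and 29 genes were tested in both. Of these, 3 had an unadjusted p under 0.05 and were higher in KO in both conditions (Capg, Ezr and Tagln2), against 0.979% of 9801 genes, and 1 was lower in both (Cnn2), against 1.4% of genes. Of the 29, 5 were higher in both, 12 lower in both and 12 opposite. The genes were chosen with these data known, so the counts describe them and do not test them.

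The groups did not overlap for 6 of 30 genes in culture (3 higher, 3 lower), against 24.7% of 10994 genes (11.2% higher, 13.5% lower), and for 19 of 29 genes in fresh cells (9 higher, 10 lower), against 52.4% of 11250 genes (27.6% higher, 24.7% lower). With 2 arrays a group, non-overlap is common in fresh cells. By probe set, 0 of 68 were called in culture, against 0.273% of 22682, and 0 of 67 in fresh cells, against 0% of 22893. Of these, 11 of 68 reached an unadjusted p under 0.05 in culture, against 15.6% of all, and 18 of 67 in fresh cells, against 12.9% of all. Of the 79 probe sets, 11 were not tested in culture and 12 in fresh cells because they did not exceed the array median on 2 arrays of the condition. In 9 of the 18 genes with several tested probe sets all pointed one way in culture, and in 9 of 18 in fresh cells. The mean deviation of the genes from their own averages ran between -0.047 and 0.017 on cultured KO arrays and between -0.092 and 0.11 on cultured WT arrays. By this mean, 1 cultured WT array, replicate 1, was the highest of all at 0.11, but its median deviation was -0.015. The highest median was 0.043, on cultured WT replicate 3.

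**Figure D3:**
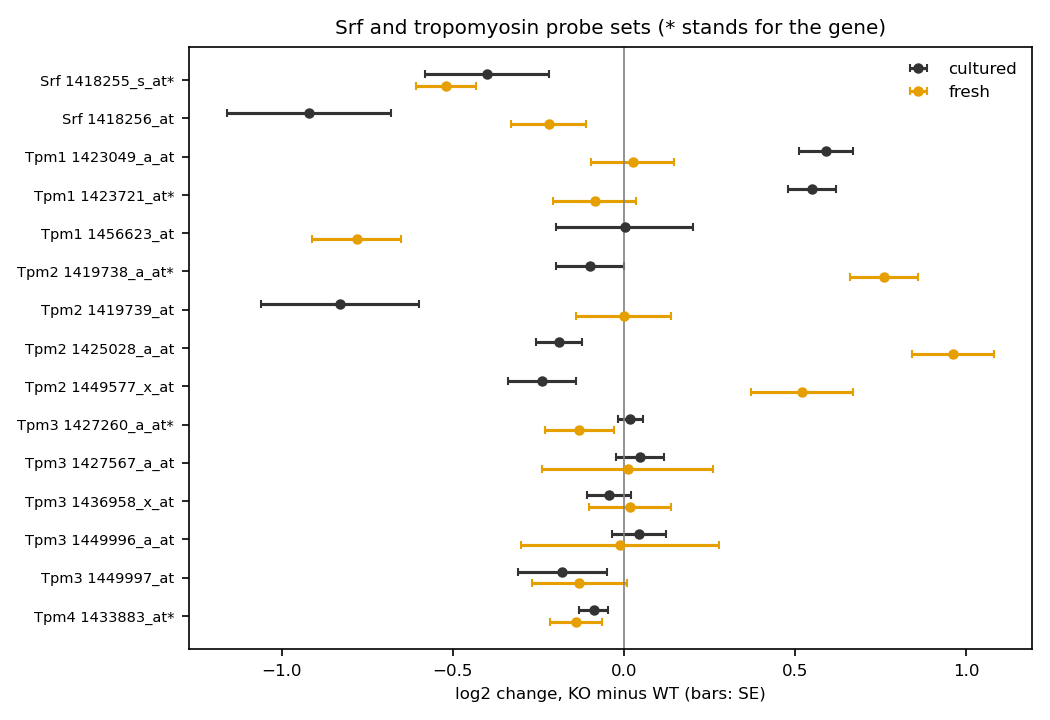
Log2 change of KO over WT (points, with the standard error as bars) for each tested probe set of Srf and the tropomyosins, in cultured and in fresh keratinocytes. Both Srf probe sets lie left of 0 in both conditions, and 3 of the Tpm2 probe sets lie left of 0 in culture and right of 0 in fresh cells.

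The 7 genes with a CArG box had a median log2 change of -0.12 in culture (2 higher, 5 lower) and -0.094 in fresh cells (1 higher, 6 lower). The 1 higher in fresh cells was Fhl2, and the 6 lower ran from -0.52 (Srf) to -0.0046 (Lima1). Of all tested genes, 5783 of 10994 were lower in culture and 5386 of 11250 in fresh cells. The genes with an entry and no box had medians of -0.031 in culture (20 genes, 8 higher and 12 lower) and -0.019 in fresh cells (19 genes, 9 higher and 10 lower).

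Other genes of the pathway came from 3 lists. The regulators upstream were RhoA, its relatives, effectors and the MRTF and Elk cofactors. In culture 1 of 17 was higher (Rhoc) and 2 were lower (Rhoa and Diaph3) at an unadjusted p under 0.05. The shares of all genes were 8.05% and 9.73%. In fresh cells 0 of 16 were higher and 1 was lower (Ssh1), against 7.64% and 7.75% of all genes, with 0 called in either condition. Diaph3, a formin, was at 1347 ± 78.5 in cultured KO cells and 1830.0 ± 39.2 in cultured WT cells (SD, n = 3 each, log2 change -0.44, adjusted p = 0.0924). The immediate early genes, several of which SRF and its Elk cofactors switch on within minutes of stimulation, were lower in fresh KO cells in all 14 cases. Of all genes, 5386 of 11250 were lower there. Among the 14, 10 were lower at an unadjusted p under 0.05 by limma, against 7.75% of all genes. Their median log2 change was -0.29, and 0 were called. In culture 0 of 13 were higher and 2 were lower at that p, Egr2 and Ccn1, against 8.05% and 9.73% of all genes. By direction alone, 5 of the 13 were higher and 8 lower in culture, with a median log2 change of -0.036. Ccn1, a matrix protein gene in that list, averaged 4792 in fresh KO and 7652 in fresh WT cells (log2 change -0.68, adjusted p = 0.153). Egr2, a transcription factor gene, averaged 18.0 in cultured KO and 102 in cultured WT cells (log2 change -2.42, adjusted p = 0.0669), where both sit low on the cultured scale. The contractile list, with myosins and their partners, had 1 gene higher of 11 in culture at an unadjusted p under 0.05, against 8.05% of all genes. It was Myh10 (log2 change 0.76, adjusted p = 0.272). In fresh cells 0 of 9 contractile genes reached that p, against 15.4% of all genes.

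By percentile rank within each array, 19 of the 31 genes ranked higher on all cultured than on all fresh arrays, against 39.9% of all genes, and 4 (Srf, Actn4, Ezr and Cnn1) ranked higher on all fresh arrays, against 41.6%. Fhl2 had a median rank of 93.0 in culture and 59.9 in fresh cells, Pdlim7 83.9 and 44.9, and Tgfb1i1 75.9 and 55.4. Of the 31 genes, 23 had a median rank in the top 10% on cultured arrays and 21 on fresh arrays. These ranks are a description without a test, and the arrays of the conditions lay on different scales as deposited.

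**Figure D4:**
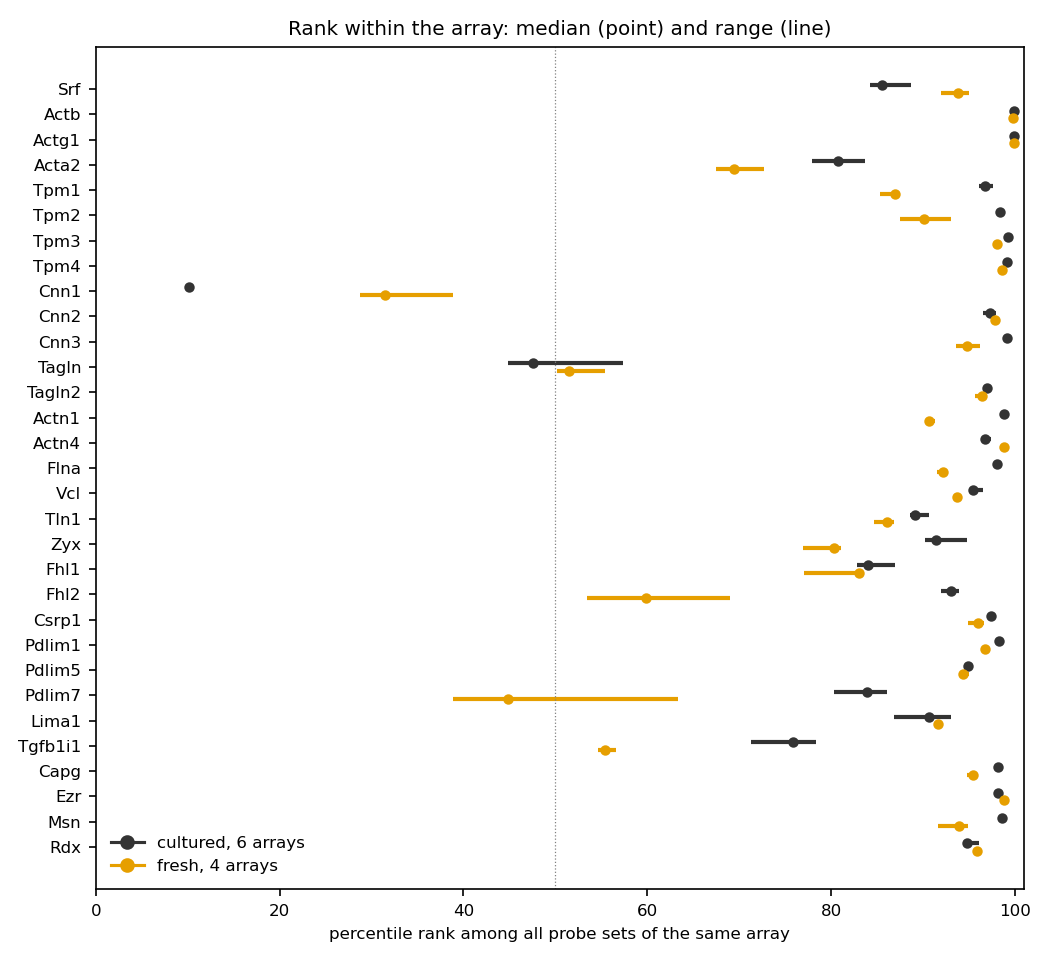
Percentile rank within the array of each gene's brightest probe set, as the median (point) and range (line) over 6 cultured and 4 fresh arrays, KO and WT together. Most genes lie near the right edge in both conditions, and Fhl2 and Pdlim7 lie far to the left of their cultured ranks in fresh cells.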

How the data were processed

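Total RNA from cultured and freshly isolated mouse keratinocytes was hybridised to Affymetrix arrays, per the labels' protocols. The authors deposited a linear intensity for every probe set on each array. The submitters' processing notes name MAS5, whose version and scaling are not given in the sources used. Gene symbols are those of the platform annotation, brought up to date with a RefSeq table (GRCm38.p6): 34945 probe sets had 1 symbol, 932 several and 9160 none. The deposited intensities were taken to log2 without an added constant. Probe sets brighter than the median of their array on 2 or more arrays of a condition were tested with limma 3.58.1 in R 4.3.3 (lmFit, eBayes with trend, 2-sided, Benjamini-Hochberg over all tested probe sets, 0.05), separately in cultured and fresh cells. The difference between conditions combined both fits' moderated standard errors, with Welch-Satterthwaite degrees of freedom. The brightest probe set over the 10 arrays stands for a gene. Scripts were tested on simulated data, where this difference test made more false calls than its threshold allows. Values per array are given for Srf, the actins, called genes and the 10 genes with the smallest p in each condition, and from each other list up to 4 genes with the smallest p in a condition are named with means or log2 changes. Probe sets ending in _s_at can match several genes, and those ending in _x_at can cross-hybridise. The members and lists were chosen with earlier results of these data known. The number of arrays limits the precision. Alternatives covered filters, centring, an added constant, the trend, 1 joint fit, the replicate number as a block, averaging of probe sets and leaving out each array.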

Additional observations from a re-analysis of the deposited data

Results flagged for a closer look

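For 2 genes the KO effect differed between cultured and fresh cells by the test of the difference itself, taken as the log2 change in culture minus that in fresh cells. Fhl2 gave -1.42 (adjusted p = 0.0182), from log2 changes of -0.12 in culture and 1.30 in fresh cells. Tpm2 gave -0.85 by its brightest probe set (adjusted p = 0.0253) and -1.15 by 1425028_a_at (adjusted p = 0.0182). In fresh cells both KO arrays lay above both WT arrays for each of these probe sets. On simulated data this test made more false calls than its threshold allows. None of the 3 passed the threshold when the smaller of the fits' degrees of freedom was used (adjusted p = 0.280).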

How the results depend on the processing

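Calls depended on the processing. In culture 62 probe sets were called, against 128 after centring on the 75th percentile, 2 with no filter, 7 with no trend, 512 in 1 fit over all 10 arrays and 0 to 94 with each array left out. Of the genes described here 0 were called, against 1 (2 probe sets) after that centring, 3 (4 probe sets) in the joint fit and 0 to 1 (0 to 2 probe sets) with each array left out. In fresh cells 0 probe sets were called, against 410 in the joint fit and 0 to 1003 with each array left out, and for the genes described here 2 (3 probe sets) in the joint fit and 0 to 3 (0 to 8 probe sets) with each array left out. The difference called 165 probe sets, against 5 in the joint fit, 0 with the smaller degrees of freedom and 2 to 1338 with each array left out, and 2 of the genes here, against 0, 0 and 0 to 3, Tagln being the third without cultured WT replicate 1 (adjusted p = 0.0385). The cause was not tested.

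The labels do not say whether the replicate numbers pair the arrays. With deviations taken from each group's mean, same-numbered KO and WT arrays correlated at 0.322, 0.081 and 0.249 in culture. Differently numbered ones correlated at -0.3 to 0.172, so pairing in culture was left undecided. In fresh cells the 2 centred arrays of a genotype mirror each other, so the value of -0.055 cannot decide it. With the replicate number as a block, 17 probe sets were called in culture and 0 in fresh cells, none of them of these genes.

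Of 506 values of single genes under settings other than left-out arrays, 482 kept direction and side of the threshold. Direction turned in culture for the mean over probe sets in Msn (0.10), Tpm3 (-0.022), Pdlim5 (0.081), Actb (0.26), Rdx (0.022) and Tln1 (0.056), and after centring in Pdlim5 (0.0026) and Actb (0.016). In fresh cells it turned for the mean over probe sets in Actb (0.30) and Rdx (-0.19), and after centring in Lima1 (0.0020). With arrays left out in turn, the log2 change crossed 0 in culture for Fhl1 (-0.10 to 0.27), Msn (-0.082 to 0.030), Flna (-0.073 to 0.042), Tpm3 (-0.0019 to 0.035), Pdlim5 (-0.059 to 0.055), Pdlim7 (-0.064 to 0.46), Actn1 (-0.0027 to 0.11), Lima1 (-0.017 to 0.68), Actb (-0.025 to 0.016) and Rdx (-0.21 to 0.070). It crossed 0 in fresh cells for Acta2 (-0.20 to 0.32), Pdlim1 (-0.17 to 0.028), Tgfb1i1 (-0.048 to 0.11), Actn4 (-0.13 to 0.0090), Tpm1 (-0.21 to 0.034), Flna (-0.13 to 0.10), Lima1 (-0.044 to 0.034) and Rdx (-0.039 to 0.079). Genes near the floor of the cultured scale have folds that depend on that floor.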
